A study of Homo sapiens with 6 samples.

Results

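Vimentin, keratins and lamins form the intermediate filaments of the cytoplasm and the nucleus. The 10 genes described here are VIM, 5 keratin genes (KRT7, KRT8, KRT18, KRT19 and KRT80), the 3 lamin genes (LMNA, LMNB1 and LMNB2) and PLEC, whose product plectin ties these filaments to other structures. They were taken by symbol as a gene family, and all 10 were found among the 17646 genes of the tables. Expression was measured by RNA sequencing in MDA-MB-231 cells, an established human line of triple negative breast cancer. The cells were transfected for 48 h with an siRNA against USP32 (siUSP32) or with a control siRNA (siControl), 3 libraries each, and no other treatment is named. Nothing in the labels ties the 3 libraries of a group to separate cultures, so p-values here reflect only library-to-library spread, which may be technical.

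Intermediate filament proteins share a long helical rod through which they pair and then assemble into ropes without polarity. Keratins are made in epithelial cells and assemble only as pairs of a type I chain (KRT18, KRT19) with a type II chain (KRT7, KRT8, KRT80). Vimentin forms filaments from copies of itself and is the filament of mesenchymal cells, including carcinoma cells with mesenchymal traits. The A-type and B-type lamins line the inner nuclear membrane. LMNA yields lamin A and lamin C by splicing, which a value per gene cannot separate.

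The end of the rod carries a stretch that is shared across the family. It is shown here for 8 members, as coding DNA read 5′ to 3′ from the principal GENCODE 29 transcripts, because it is what the genes have in common although their RNA levels moved apart. Each line holds 30 bases, and the last 18, which encode the end of the motif, are in capitals.
VIM: acctacaggaagCTGCTGGAAGGCGAGGAG
KRT7: acctaccgcaagCTGCTGGAGGGCGAGGAG
KRT8: acctacaggaagCTGCTGGAGGGCGAGGAG
KRT80: acctacaggaagCTGGTGGAGGGCGAGGAG
KRT18: acctaccgccgcCTGCTGGAAGATGGCGAG
KRT19: acctaccgcagcCTGCTCGAGGGACAGGAA
LMNB1: gcttacaggaaaCTCTTAGAAGGCGAAGAA
LMNB2: gcctaccggaagCTCCTGGAGGGCGAGGAG
VIM and KRT8 were identical at 29 of these 30 bases (96.7%), as were the type II keratins KRT8 and KRT80. KRT18 and LMNB1, the least alike, were identical at 15 (50.0%). Over the whole transcripts, all read 5′ to 3′, the longest identical run between any pair of members was 65 bases, between KRT8 and KRT80. The longest run was 41 bases between KRT7 and KRT8. Sequence shared on opposite strands was not part of this comparison.

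The values are FPKM, fragments scaled to transcript length and library size, a level per length that can be set side by side between genes. The FPKM of all listed genes summed to between 855573 and 948641 in the siUSP32 libraries and between 686376 and 694831 in the siControl libraries, and siUSP32 library 2, at the top of that range, stood apart from the other two of its group. USP32 itself was at 2.0, 1.88 and 2.01 FPKM in the siUSP32 libraries and at 7.50, 7.48 and 8.32 FPKM in the siControl libraries. CD44 and AXL, markers of a mesenchymal triple negative line, were present in both groups. CD44 was at 135 ± 3.83 and 425 ± 1.89 FPKM in siUSP32 and siControl (SD, n = 3 each). In the same order, AXL was at 16.7 ± 0.481 and 64.5 ± 0.802 FPKM. CD44 and AXL were each called lower in siUSP32 (limma adjusted p = 5.34e-09 and 4.14e-09). The mesenchymal gene ZEB1, at 5.83 and 5.64 FPKM, was not called. The epithelial gene EPCAM (4.24 and 10.503 FPKM) and the receptor gene ERBB2 (3.603 and 12.03 FPKM) were also above 1 FPKM in every library. Both were called lower in siUSP32. The receptor gene ESR1 averaged 0.207 and 0.50 FPKM. The epithelial cadherin gene CDH1 was at 0 to 0.04 FPKM in siUSP32 and 0.44 to 0.50 FPKM in siControl, and the leukocyte gene PTPRC was at 0 in 5 of 6 libraries and at 0.02 FPKM in siUSP32 library 3. Of 14 identity markers 13 were listed and 8 tested, of which 1 rose, 6 fell and 1 was not called (median log2 difference -1.03). The 1 that rose averaged 1.62 FPKM in siUSP32 and 0.633 FPKM in siControl, so it passed the filter only through siUSP32. At a minimum FPKM of 5, 6 were tested, of which 0 rose and 5 fell. Of all genes tested 33.3% were called higher and 41.3% lower (median -0.06). The list mixes markers of different cell types, so its count and median give no reading of identity. The part of these markers in the results was not tested. In bulk RNA, fewer cells of a type and less RNA per cell cannot be told apart.

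Of the 10 genes, 4 rose (VIM, KRT7, LMNA and LMNB2), 3 fell (KRT19, KRT80 and PLEC) and 3 did not pass the test (KRT8, KRT18 and LMNB1) at a limma adjusted p under 0.05. Over all 12003 genes tested 74.6% were called, 33.3% higher and 41.3% lower, so 7 of 10 is near that background and says nothing particular about the family. Groups did not overlap for 9 of the 10 genes, 5 higher and 4 lower, against 77.8% of all genes tested, 34.6% higher and 43.2% lower. The median log2 difference, siUSP32 minus siControl on log2(FPKM + 1), was 0.08 for the members and -0.06 for all genes tested. Rescaling to TPM moved the median of all genes by -0.33, quantile normalization by 0.16 and a minimum FPKM of 5 by 0.11. With TPM 1 member rose and 6 fell, against 14.3% and 62.1% of all genes. After quantile normalization 2 rose and 7 fell, against 43.8% and 30.0% of all genes. Correcting each library for transcript length left 3 rises and 5 falls, against 35.1% and 35.1% of all genes. Median-ratio scaling left 4 rises and 3 falls, against 37.7% and 37.7% of all genes. VIM was higher and KRT19, KRT80 and PLEC were lower, past the threshold, in the main fit and in each of the 17 alternatives.

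**Figure D1:**
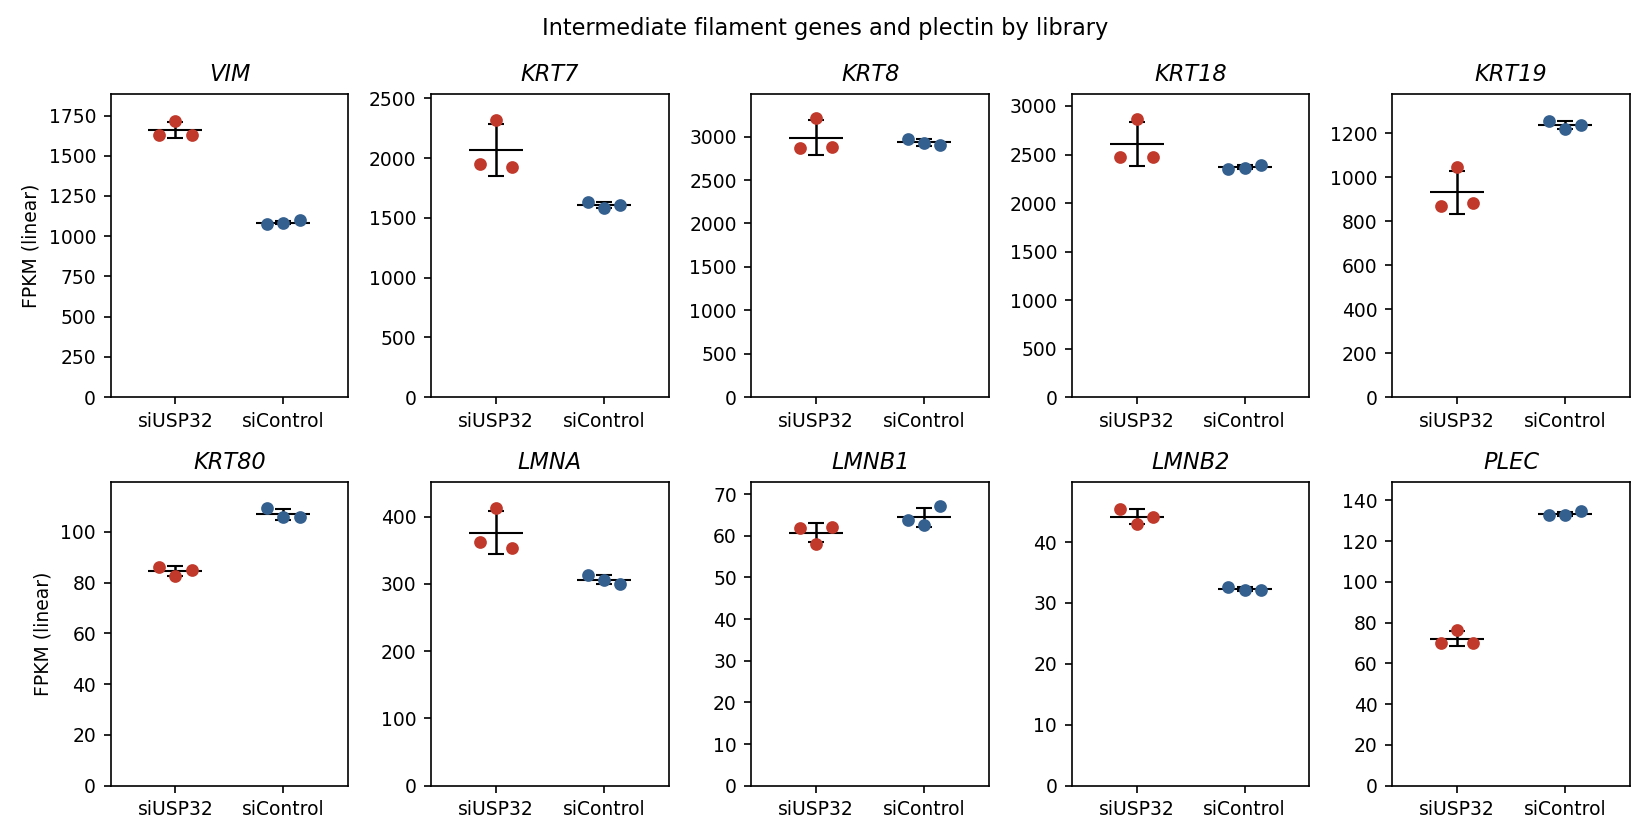
FPKM of each of the 10 genes on linear axes that start at 0, with siUSP32 (red) left of siControl (blue). Points are the 3 libraries of a group and the bars are the mean and SD. VIM lies at 1628 to 1715 FPKM in siUSP32, above all siControl libraries, and PLEC at 69.9 to 76.5 FPKM, below them.

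VIM (Entrez 7431, chromosome 10, 17228259 to 17237593, plus strand, coordinates on GRCh38) encodes vimentin. It was at 1628, 1715 and 1630.1 FPKM in the siUSP32 libraries and at 1077, 1080.4 and 1098 FPKM in the siControl libraries. Every siUSP32 library was above every siControl library, and the gap between the groups was wider than the spread within either. The mean rose 1.53-fold, to 1658 ± 49.5 FPKM in siUSP32 against 1085 ± 10.98 FPKM in siControl (SD, n = 3 each), with a log2 difference of 0.61 ± 0.05 (SE, limma adjusted p = 4.68e-06). By TPM it came to 0.24, by quantile normalization to 0.099 and by length-corrected values to 0.47. VIM ranked 100 among the tested genes by its mean in siUSP32 and 102 in siControl, so its place in the order of levels was nearly the same in both groups. An antisense gene overlaps VIM in GENCODE 29, and the counting is not stated to use strand, so reads of the pair may be mixed.

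Among the type II keratins, KRT7 rose and KRT8 did not pass the test. KRT7 (Entrez 3855, chromosome 12, 52232520 to 52252186, plus strand), a keratin of simple and ductal epithelia, was at 1953, 2315 and 1924 FPKM in siUSP32 and at 1632, 1578 and 1605 FPKM in siControl. The groups did not overlap, and siUSP32 library 2 was the highest. KRT7 rose by 0.36 ± 0.08 on the log2 scale (SE, limma adjusted p = 0.00208), or by 0.27 without siUSP32 library 2. The direction depended on scaling, with -0.01 by TPM, -0.22 after quantile normalization (adjusted p = 0.00188) and 0.12 with the length correction, which did not pass (adjusted p = 0.0673). Its adjusted p ran between 3.07e-05 and 0.769 in the 17 alternatives.

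KRT8 (Entrez 3856, chromosome 12, 52897187 to 52949954, minus strand), the type II keratin of simple epithelia, was at 2874, 3217 and 2875 FPKM in siUSP32 and at 2978, 2925 and 2902 FPKM in siControl. Here the groups overlapped, since siUSP32 libraries 1 and 3 lay below the siControl range and library 2 lay above it. KRT8 differed by 0.02 ± 0.06 on that scale (SE, limma adjusted p = 0.740). It was -0.03 without siUSP32 library 2. By TPM it came to -0.35, by quantile normalization to -0.50 and by length-corrected values to -0.12, each past the threshold (adjusted p from 5.76e-07 to 0.956 in all alternatives). KRT80 (Entrez 144501, chromosome 12, 52168996 to 52192000, minus strand), a less abundant type II keratin, was at 86.35, 82.5 and 85.05 FPKM in siUSP32 and at 109, 106 and 106 FPKM in siControl. All siUSP32 libraries were lower, and siUSP32 library 2 was the lowest of them. The mean fell 1.26-fold (log2 difference -0.33 ± 0.05, SE, limma adjusted p = 1.33e-04), with -0.70 by TPM and -0.15 by length-corrected values.

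The type I keratins also divided. KRT18 (Entrez 3875, chromosome 12, 52948871 to 52952901, plus strand), the partner of KRT8 and its neighbour on the chromosome, was at 2479, 2871 and 2478 FPKM in siUSP32 and at 2354, 2363 and 2394 FPKM in siControl. The groups did not overlap, but the spread of siUSP32 was larger than the gap. The log2 difference of 0.14 ± 0.07 did not pass (SE, limma adjusted p = 0.103). It was 0.06 without siUSP32 library 2. By TPM it came to -0.24, by quantile normalization to -0.45 and by length-corrected values to -0.16, all past the threshold (adjusted p from 1.73e-06 to 0.324 in all alternatives).

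KRT19 (Entrez 3880, chromosome 17, 41523617 to 41528308, minus strand) encodes a short type I keratin without a tail that is used as a marker of epithelial and carcinoma cells. It was at 869.5, 1046 and 883 FPKM in siUSP32 and at 1257, 1218 and 1241 FPKM in siControl. All siUSP32 libraries were lower, and library 2 was the nearest to siControl. The mean fell 1.33-fold, to 933 ± 98.5 FPKM in siUSP32 against 1239 ± 19.7 FPKM in siControl (SD, n = 3 each, log2 difference -0.41 ± 0.07, SE, limma adjusted p = 7.60e-04). The difference lay between -0.93 and -0.33 in the 17 alternatives. KRT18 and KRT19 thus had log2 differences of 0.14 and -0.41 although both are type I chains.

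**Figure D2:**
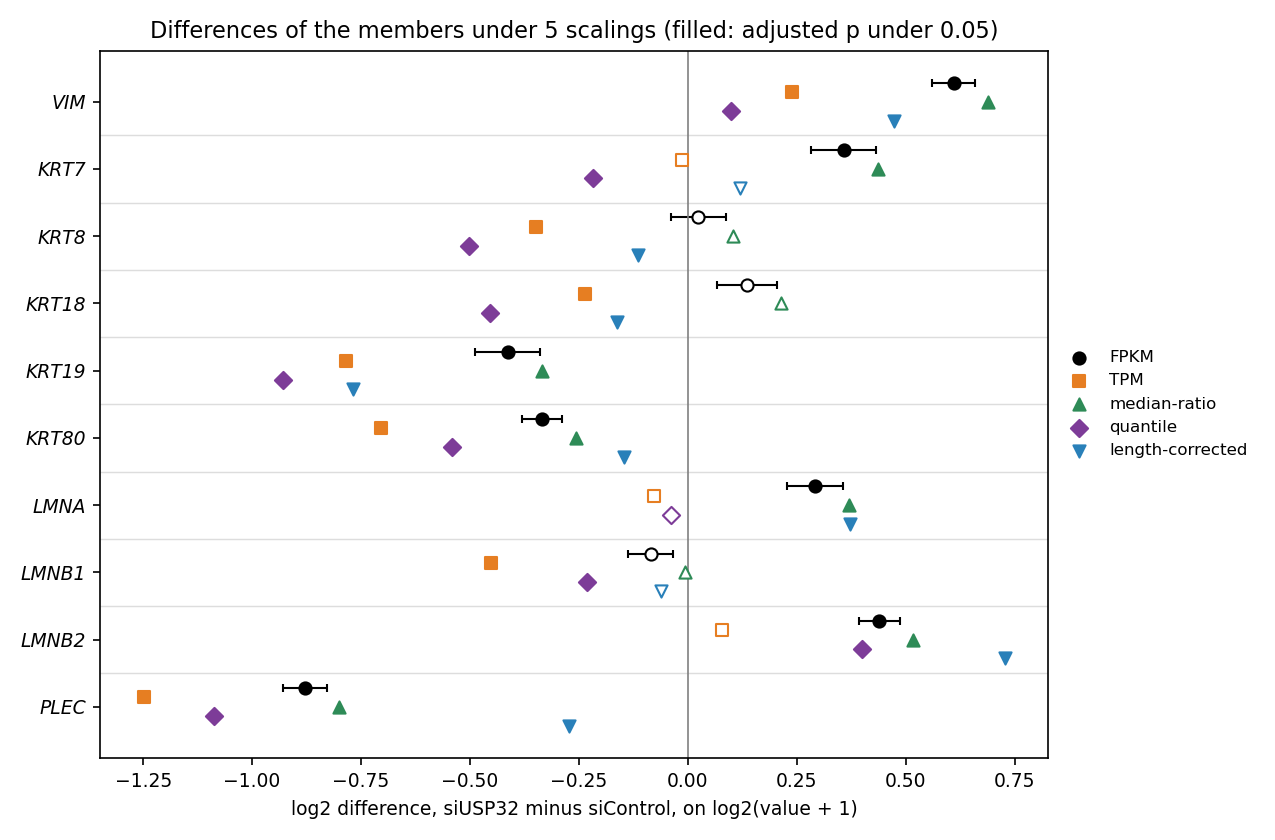
Log2 difference of each member, siUSP32 minus siControl, for FPKM with its SE and for 4 other scalings; filled symbols passed an adjusted p of 0.05. VIM lies right of 0 and KRT19, KRT80 and PLEC lie left of 0 under all 5, while KRT7, KRT8, KRT18 and LMNA change side.

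Read sharing limits the keratin values. GENCODE 29 names 50 pseudogenes after KRT8, 67 after KRT18 and 5 after KRT19, and 0 of these are listed in the tables. No source used here gives how reads matching several copies were handled. The principal transcripts of KRT8 and KRT18, on opposite strands, share 135 bases of exon, so without strand some reads could count for either gene.

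Ratios within a library do not depend on a scale factor common to its genes. KRT8 over KRT18, the classic pair of simple epithelia, was 1.16, 1.12 and 1.16 in siUSP32 and 1.27, 1.24 and 1.21 in siControl. The ratio was thus lower in each siUSP32 library, by 0.11 on the log2 scale, but the difference was +0.05 with the length correction. KRT7 over KRT18 was 0.788, 0.806 and 0.776 in siUSP32 and 0.693, 0.668 and 0.671 in siControl, higher in each siUSP32 library (log2 difference 0.22). KRT19 over KRT18 was 0.351, 0.365 and 0.356 in siUSP32 and 0.534, 0.516 and 0.518 in siControl. The log2 difference was -0.55, every siUSP32 library was lower, and siUSP32 library 2 lay close to the rest of its group.

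VIM over the sum of the 5 keratins was 0.197, 0.180 and 0.198 in siUSP32 and 0.129, 0.132 and 0.133 in siControl. It was 1.46-fold higher in siUSP32 (log2 difference 0.54), and the groups did not overlap. LMNB1 over LMNB2 was 1.36, 1.35 and 1.41 in siUSP32 and 1.95, 1.95 and 2.09 in siControl, a log2 difference of -0.54. LMNA over the sum of both B-type lamin genes was 3.37, 4.08 and 3.33 in siUSP32 and 3.24, 3.23 and 3.02 in siControl, a log2 difference of 0.18, or 0.082 without siUSP32 library 2. None of the 6 ratios overlapped between the groups, and a 2-sided exact permutation test gave p = 0.1 for each, also after adjustment over the 6, which is the smallest p that 3 against 3 libraries allow.

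**Figure D3:**
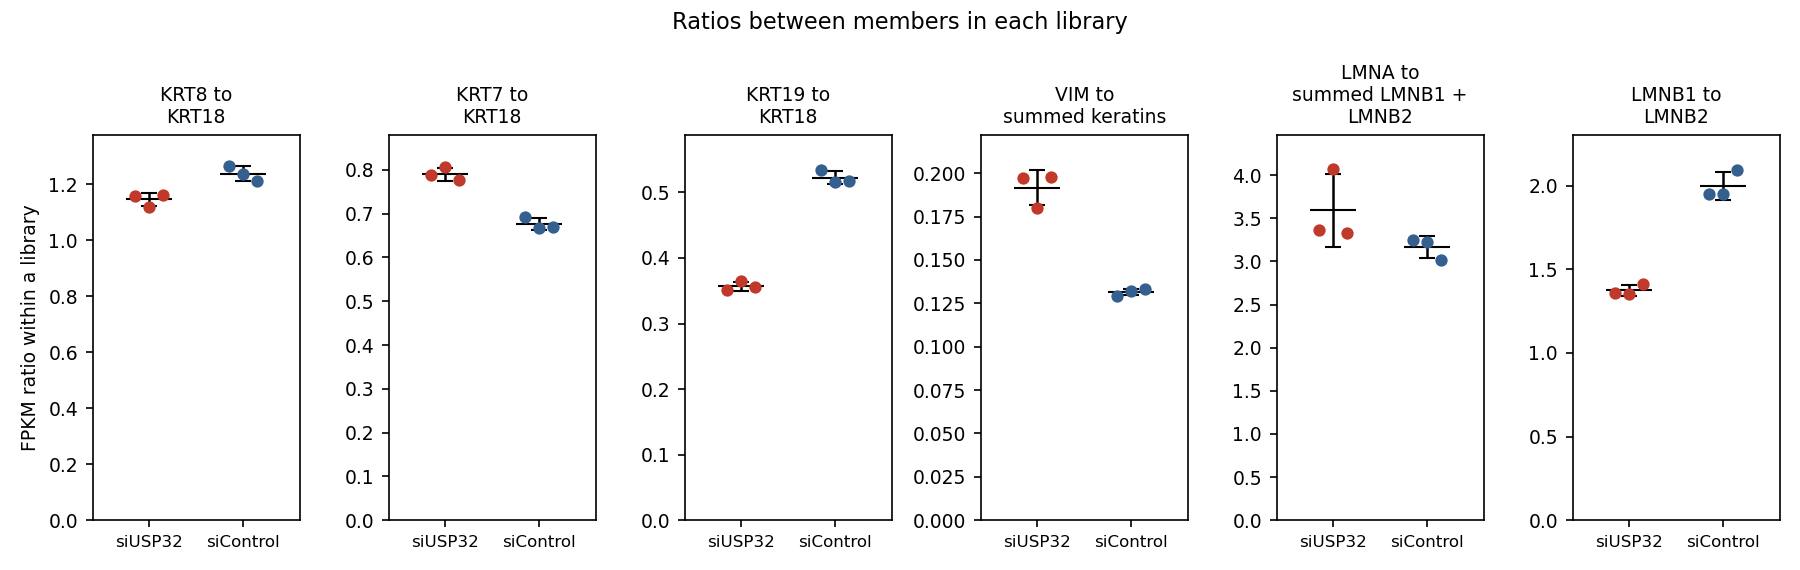
FPKM ratios between members within each library, on linear axes that start at 0, with siUSP32 (red) left of siControl (blue) and bars for mean and SD. KRT19 to KRT18 is 0.351 to 0.365 in siUSP32 and 0.516 to 0.534 in siControl, and VIM to summed keratins is higher in all siUSP32 libraries.

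The lamin genes followed different courses. LMNA (Entrez 4000, chromosome 1, 156082573 to 156140089, plus strand), which encodes lamins A and C, was at 362, 412 and 354 FPKM in siUSP32 and at 313, 306 and 299.6 FPKM in siControl. The groups did not overlap, and siUSP32 library 2 was the highest. LMNA rose 1.23-fold (log2 difference 0.29 ± 0.06, SE, limma adjusted p = 0.00253). Without that library it came to 0.22, and by length-corrected values to 0.37. The call was lost with TPM (-0.08) and by quantile normalization (-0.04), its adjusted p running between 2.01e-04 and 0.410.

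LMNB2 (Entrez 84823, chromosome 19, 2427638 to 2456996, minus strand), the less abundant B-type gene, was at 45.5, 43.0 and 44.05 FPKM in siUSP32 and at 32.7, 32.15 and 32.1 FPKM in siControl. All siUSP32 libraries were higher, with little spread in either group. LMNB2 rose 1.37-fold (log2 difference 0.44 ± 0.05, SE, limma adjusted p = 3.19e-05). By length-corrected values it came to 0.73 and by quantile normalization to 0.40. It was 0.08 with TPM, which did not pass (adjusted p = 0.317, within a range of 1.77e-06 to 0.317). LMNB1 (Entrez 4001, chromosome 5, 126776623 to 126837020, plus strand) was at 61.9, 58.1 and 62.2 FPKM in siUSP32 and at 63.7, 62.7 and 67.1 FPKM in siControl. The siUSP32 libraries were all lower, but the groups lay close together. The log2 difference of -0.09 ± 0.05 did not pass (SE, limma adjusted p = 0.162), but it passed with TPM (-0.45) and by quantile normalization (-0.23), with adjusted p from 3.56e-04 to 0.891 in all alternatives. LMNB1 therefore made up 12.7% ± 1.19 of the summed lamin FPKM in siUSP32 and 16.01% ± 0.706 in siControl, and LMNB2 9.22% ± 0.733 and 8.01% ± 0.0272 (SD, n = 3 each).

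PLEC (Entrez 5339, chromosome 8, 143915147 to 143976734, minus strand) showed the largest difference of the 10 in FPKM, but not with the length correction, under which KRT19, LMNB2, VIM and LMNA differed more. Plectin is a giant linker of intermediate filaments to hemidesmosomes, actin and the nuclear envelope. Its gene was at 69.9, 76.5 and 69.98 FPKM in siUSP32 and at 132.8, 132.6 and 134.6 FPKM in siControl. No siUSP32 library came near the siControl range. PLEC fell 1.85-fold, to 72.1 ± 3.79 FPKM in siUSP32 against 133 ± 1.11 FPKM in siControl (SD, n = 3 each, log2 difference -0.88 ± 0.05, SE, limma adjusted p = 5.08e-07). Its principal transcript, of 15249 bases, is the longest among the members, which otherwise span 1390 to 4671 bases. By length-corrected values PLEC differed by -0.27 (adjusted p = 0.0131, range 2.39e-08 to 0.0131), and by TPM by -1.25.

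By mean FPKM the order in siUSP32 was KRT8, KRT18, KRT7, VIM, KRT19, LMNA, KRT80, PLEC, LMNB1 and LMNB2. In siControl it was KRT8, KRT18, KRT7, KRT19, VIM, LMNA, PLEC, KRT80, LMNB1 and LMNB2. VIM and KRT19, and KRT80 and PLEC, had thus changed places. The ranges of neighbours in these orders did not overlap, but KRT8 and KRT18 in siUSP32 were separated by under 3 FPKM. Over the 36 listed keratins, sums formed after values were seen, the summed FPKM was 9330.1 ± 818 in siUSP32 and 9104 ± 79.1 in siControl (SD, n = 3 each), with overlap between the groups. As part of the FPKM of all genes, keratins made up 1.04% ± 0.0344 in siUSP32 and 1.32% ± 0.0157 in siControl, while VIM made up 0.186% ± 0.00489 and 0.157% ± 0.000514.

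The other intermediate filament genes included larger differences at lower levels. Of 43 on the list, 41 were listed and 17 passed the filter of a mean of 1 FPKM, with 5 rises, 8 falls and 4 not called, against 33.3% higher and 41.3% lower of all genes tested. Their median log2 difference was -0.23, against -0.06 for all genes. The other 24 averaged at most 0.778 FPKM. KRT6A averaged 0.937 FPKM in siUSP32 and BFSP1 0.953 FPKM in siControl, so each passed the filter only through its higher group. KRT6A, a keratin of activated and wounded squamous epithelium, fell 18.1-fold, with 1.01, 0.90 and 0.90 FPKM in siUSP32 and 18.7, 15.8 and 16.3 FPKM in siControl (log2 difference -3.21, limma adjusted p = 3.16e-09). KRT16, its usual type I partner, fell 2.86-fold, with 11.2, 12.98 and 11.1 FPKM in siUSP32 and 34.7, 33.05 and 33.2 FPKM in siControl (limma adjusted p = 1.34e-07). KRT13, a keratin of internal stratified epithelia, fell 3.01-fold (2.15 ± 0.374 FPKM in siUSP32 and 6.49 ± 0.212 FPKM in siControl, limma adjusted p = 2.56e-06).

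The basal keratin genes KRT5, KRT14 and KRT17, named after their values were seen, were also called lower. KRT17 was the most abundant of them, with 484, 589 and 449.8 FPKM in siUSP32 and 686, 678 and 682 FPKM in siControl. KRT5 was at 2.31 ± 0.450 FPKM in siUSP32 and 5.29 ± 0.462 FPKM in siControl, and KRT14 at 7.36 ± 1.42 and 13.2 ± 0.444 FPKM (SD, n = 3 each). KRT15, left out of the sum below, was at 6.08 ± 1.09 FPKM in siUSP32 and 7.24 ± 0.301 FPKM in siControl. It overlapped between the groups and was not called (log2 difference -0.23, limma adjusted p = 0.0784). The 7 genes KRT5, KRT6A, KRT6B, KRT13, KRT14, KRT16 and KRT17, a sum formed after the values were seen, together held 532 ± 74.9 FPKM in siUSP32 and 758 ± 7.14 FPKM in siControl. Most of this was KRT17, with 508 ± 72.6 FPKM in siUSP32 and 682 ± 4.12 FPKM in siControl. KRT7, KRT8, KRT18 and KRT19 together held 8595 ± 740 and 8149 ± 69.1 FPKM and overlapped between the groups.

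The hair keratin genes KRT34 and KRT86 and a lens filament gene were among the rises. KRT34, a type I hair keratin, rose 2.88-fold, with 34.8, 33.4 and 31.9 FPKM in siUSP32 and 11.6, 11.8 and 11.4 FPKM in siControl (log2 difference 1.45, limma adjusted p = 3.24e-08). The siUSP32 libraries were all well above the siControl range. KRT86, a type II hair keratin, was at 1.80 ± 0.202 FPKM in siUSP32 and 1.02 ± 0.167 FPKM in siControl, and BFSP1, which encodes the lens protein filensin, at 2.21 ± 0.254 and 0.953 ± 0.0513 FPKM (SD, n = 3 each, limma adjusted p = 0.00108 and 3.72e-05). Summed over the listed genes, type II keratins exceeded type I keratins 1.23-fold ± 0.0188 in siUSP32 and 1.06-fold ± 0.0141 in siControl. Values of close copies are uncertain, as the principal transcripts of KRT81 and KRT86 share a run of 605 identical bases, KRT6A and KRT6B 269, KRT14 and KRT16 158, and KRT33B and KRT34 113. KRT81, given for its shared run after its values were seen, was at 2.97, 3.52 and 2.94 FPKM in siUSP32 and at 4.12, 3.0 and 3.50 FPKM in siControl, overlapped between the groups and was not called (log2 difference -0.13, limma adjusted p = 0.284). KRT86 differed by 0.28 with TPM and by 0.86 after quantile normalization, where BFSP1 differed by 1.11. The annotated spans of KRT7 and KRT86 also overlap on the same strand.

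**Figure D4:**
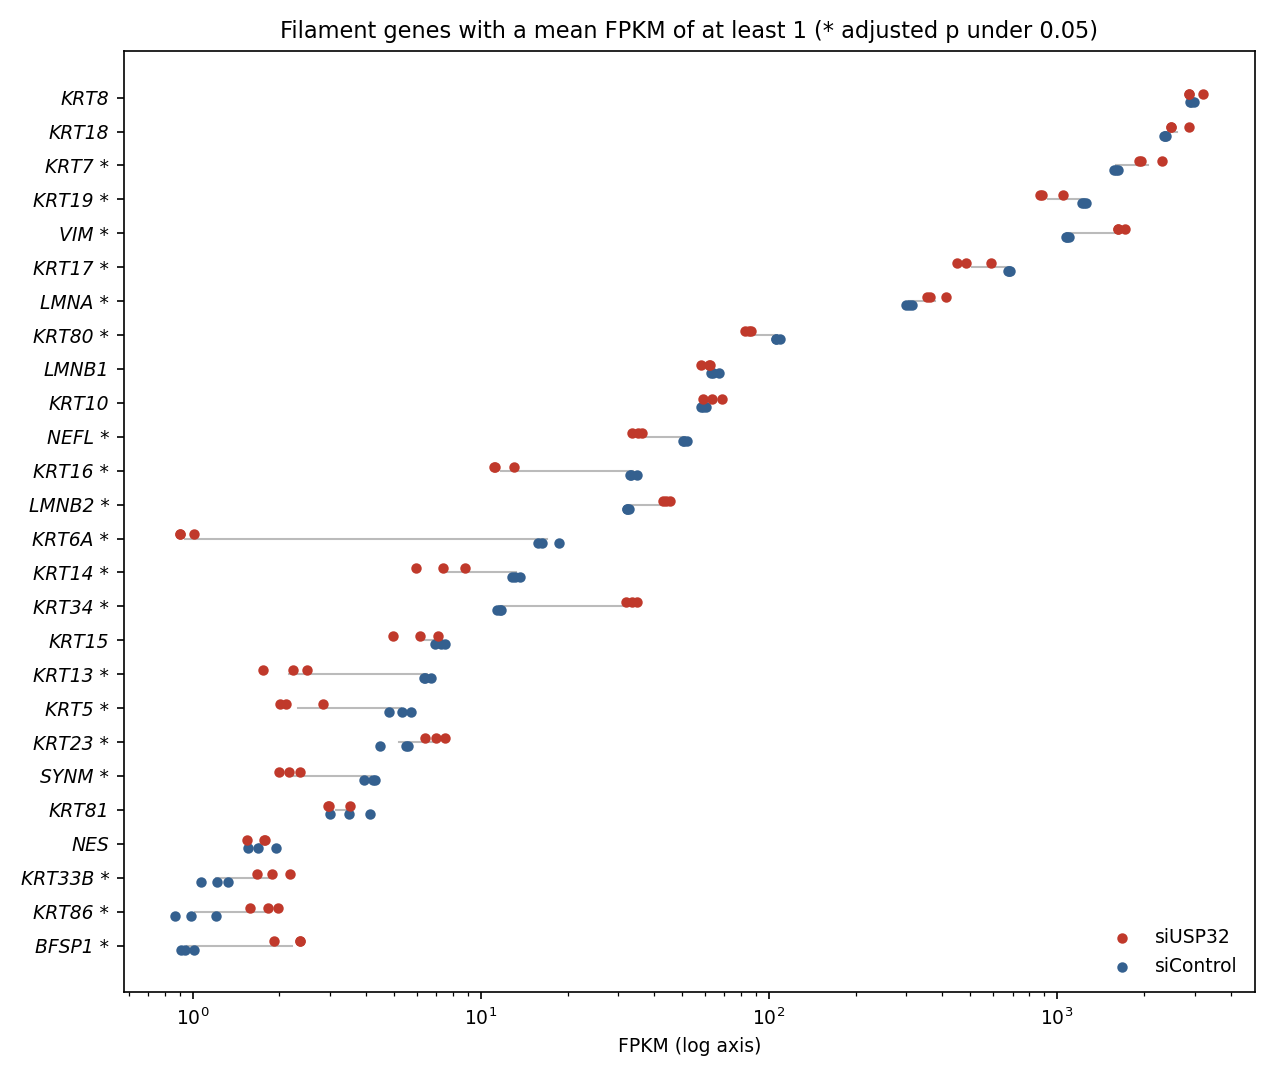
FPKM on a log axis for the 26 filament genes with a mean of at least 1 FPKM, ordered by the siControl mean, with siUSP32 in red above siControl in blue and 1 point per library. KRT6A and KRT16 lie far to the left of their siControl values and KRT34 far to the right, while the abundant KRT8 and KRT18 nearly coincide.

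Most genes of plakins, the linker family to which plectin belongs, fell. Among 8 plakin and linker genes there were 0 rises, 6 falls and 2 not called, against 33.3% higher and 41.3% lower of all genes tested. The median log2 difference was -0.76, against -0.06 for all genes. EPPK1, which encodes the keratin-binding epiplakin, fell 3.28-fold (2.88 ± 0.240 FPKM in siUSP32 and 9.46 ± 0.200 FPKM in siControl). The cytoskeletal linkers MACF1 and DST, which join filaments of different kinds, fell 2.99-fold and 2.57-fold (limma adjusted p = 1.95e-07 and 2.25e-06). Several of these transcripts are very long. With the length correction 1 rose and 5 fell with a median of -0.39 (all genes 35.1% higher and 35.1% lower), and the differences of EPPK1, MACF1 and DST were -0.82, -0.71 and -0.39. After quantile normalization 2 rose and 4 fell with a median of -0.38 (all genes 43.8% higher and 30.0% lower).

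Keratins are anchored at desmosomes and hemidesmosomes. Of 14 genes of these junctions 11 passed the filter, with 0 rises, 10 falls and 1 not called, against 33.3% higher and 41.3% lower of all genes tested. DSG2, ITGB4 and PKP1 averaged 0.843, 0.623 and 0.96 FPKM in siUSP32, so they passed the filter only through siControl, and the count leans on that. The median was -0.77, or -0.55 with the length correction. There 8 fell and 1 rose, against 35.1% lower and 35.1% higher of all genes. DSG2, a desmosomal cadherin, fell 18.3-fold, with 0.66, 0.86 and 1.01 FPKM in siUSP32 and 15.2, 14.6 and 16.6 FPKM in siControl. ITGA6, the integrin chain of hemidesmosomes, fell 16.3-fold (5.22 ± 0.863 FPKM in siUSP32 and 85.0 ± 3.14 FPKM in siControl), and PERP, a desmosomal membrane protein gene, fell 4.17-fold (27.6 ± 0.847 and 115 ± 1.66 FPKM). The plaque gene JUP, plakoglobin, named after its values were seen, differed less, with 30.35 ± 1.58 FPKM in siUSP32 and 36.9 ± 0.312 FPKM in siControl (log2 difference -0.27).

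At the nuclear envelope most genes of the lamins' partners fell. Of 17 partner genes 15 passed the filter, with 4 rises, 11 falls and 0 not called, against 33.3% higher and 41.3% lower of all genes tested. The median was -0.77 (-0.61 with the length correction). SUN2, an inner nuclear membrane protein that links lamins to the cytoskeleton, fell 7.196-fold, with 4.25, 3.87 and 4.35 FPKM in siUSP32 and 28.7, 28.99 and 32.1 FPKM in siControl (log2 difference -2.58, limma adjusted p = 4.92e-09). LBR, the lamin B receptor, fell 4.73-fold (4.62 ± 0.479 FPKM in siUSP32 and 21.8 ± 1.13 FPKM in siControl), and TMEM43, also of the inner nuclear membrane, fell 3.95-fold. BANF1, a small soluble protein that bridges DNA and the lamina, rose 1.48-fold (517 ± 24.9 and 351 ± 17.3 FPKM, limma adjusted p = 2.13e-05). Its log2 difference of 0.56 in FPKM became 0.19 by TPM, 0.18 by quantile normalization and 0.12 by length-corrected values, each called. The emerin gene EMD rose 1.40-fold and LRRC59 1.37-fold, with calls lost by TPM (log2 differences 0.11 and 0.08) and, for EMD, with the length correction (0.12).

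Lamins A, B1 and B2 end in a CaaX box, where a farnesyl group is attached and the last residues are trimmed. The last 27 coding bases of each gene are shown, stop codon included, with the 4 codons of the box in capitals, because RNA of enzymes that act on them differed between the groups.
LMNA: agcccccagaacTGCAGCATCATGtaa
LMNB1: tccaatagaagcTGTGCAATTATGtaa
LMNB2: acctcaagaggcTGCTACGTGATGtga
Of 8 genes of lamin processing and binding 7 passed the filter, of which 3 rose and 4 fell, against 33.3% higher and 41.3% lower of all genes tested. The median was -0.33 (-0.16 with the length correction). ZMPSTE24, the membrane protease that cuts prelamin A into lamin A, fell 5.72-fold, with 11.7, 10.7 and 12.4 FPKM in siUSP32 and 64.5, 65.1 and 69.2 FPKM in siControl (log2 difference -2.42, limma adjusted p = 4.37e-09). The siUSP32 libraries were all far below the siControl range. The CaaX methyltransferase gene ICMT and the CaaX protease gene RCE1 fell 1.40-fold and 1.27-fold (limma adjusted p = 6.21e-05 and 6.87e-04). Their log2 differences of -0.46 and -0.33 became -0.82 and -0.70 with TPM and -0.16 and -0.65 with the length correction. FNTA, the alpha subunit of farnesyltransferase, rose 1.38-fold, and NARF, a prelamin A binding protein gene, 1.43-fold. The beta subunit gene FNTB, named after its values were seen, was called lower (limma adjusted p = 0.00652). It was at 1.72 ± 0.305 FPKM in siUSP32 and 2.67 ± 0.436 FPKM in siControl (SD, n = 3 each). The calls of FNTA and NARF were lost with TPM (log2 differences 0.09 and 0.14). Which protein forms these cells made was not measured.

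Among 13 genes of filament turnover and chaperones, 12 passed the filter, with 5 rises, 4 falls and 3 not called, against 33.3% higher and 41.3% lower of all genes tested. The median was 0.08. HSPB1, a small heat shock protein that binds intermediate filaments, rose 1.99-fold, with 1121, 1465 and 993 FPKM in siUSP32 and 582, 611 and 604 FPKM in siControl (limma adjusted p = 7.37e-05). Its log2 difference of 0.97 became 0.60 by TPM, 0.40 by quantile normalization and 0.47 by length-corrected values. HSPB8, of the same family, rose 1.40-fold, a call that TPM values ended (log2 difference 0.10). FAM83H, a keratin-binding protein gene, fell 2.14-fold, and CASP6, whose product cleaves lamin A in apoptosis, fell 1.78-fold (limma adjusted p = 1.40e-07 and 5.21e-05). With TPM 2 of the 12 rose and 7 fell, against 14.3% and 62.1% of all genes.

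Tubulins, most of them subunits of microtubules, serve as a comparison from another part of the cytoskeleton. Among the 11 measured there were 9 rises, 0 falls and 2 not called (median 0.36), against 33.3% higher and 41.3% lower of all genes tested (median -0.06). With TPM 2 rose and 2 fell (median -0.01), against 14.3% and 62.1% of all genes (median -0.39). After quantile normalization 5 rose and 4 fell, against 43.8% and 30.0% of all genes. With the length correction 6 rose and 2 fell, against 35.1% and 35.1% of all genes. TUBA1C rose 1.72-fold (771 ± 42.4 FPKM in siUSP32 and 449 ± 3.92 FPKM in siControl), with a log2 difference of 0.78 that became 0.41 with TPM and 0.23 after quantile normalization. TUBA1A rose 1.37-fold and TUBB2B 1.42-fold, and both calls were lost with TPM (log2 differences 0.08 and 0.14). Tubulin genes can share reads, so values gene by gene are uncertain.

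**Figure D5:**
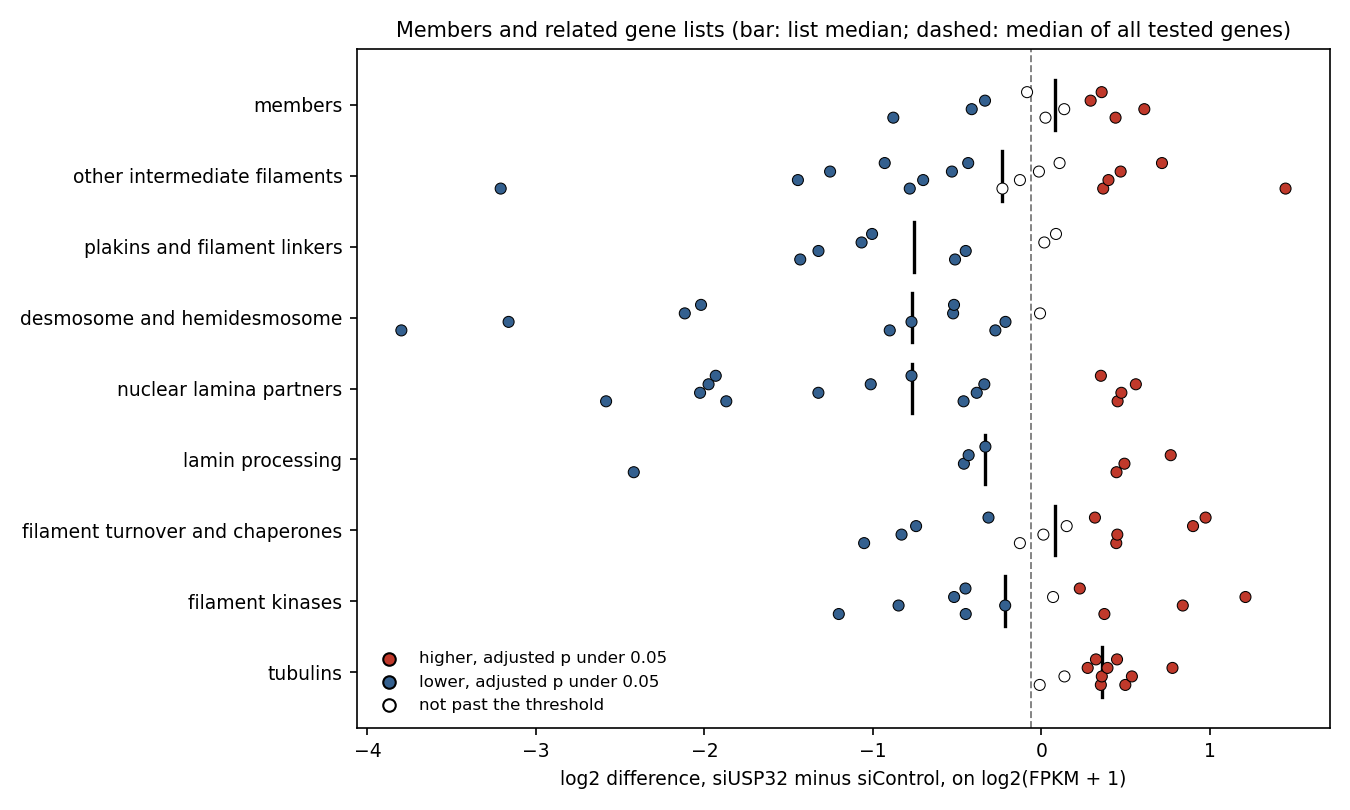
Log2 difference of every tested gene in the members and in 8 related lists, siUSP32 minus siControl; red was called higher, blue lower and white neither. Bars are list medians, from -0.77 for the junction and lamina lists to 0.36 for tubulins, and the dashed line is the median of all tested genes, -0.06.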

How the data were processed

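RNA sequencing of 6 libraries was deposited by the authors as FPKM with 2 decimals, 1 table per library, per the file headers. Reads had been placed on GRCh38.p13, a build named in and credited per the submitters' processing notes. The sources used here do not give the aligner, the counter, the handling of strand and of reads with several matches, or the depth. The low values did not yield the depth, so counting intervals were not computed. Genes with a mean of at least 1 FPKM (12003) were tested as log2(FPKM + 1) in R 4.3.3 by limma 3.58.1 using a trended variance and Benjamini-Hochberg adjustment over all of them. This scale understates changes of low genes. The filter averaged all 6 libraries, so a gene could pass it through 1 group alone. Folds are ratios of mean FPKM. The fit was tested on simulated data. Transcript lengths and locations came from GENCODE 29 (11957 genes), taking the principal transcript whose coding part is longest, and the length correction was a loess curve (span 0.5) per library. The members, the 9 lists and the tests were chosen with earlier results of these data known. The genes named from a list are at most 3 per direction, those of smallest adjusted p; some of them, and 1 sequence, are not reported here. Alternatives were a pseudocount of 0.1, other filters, scalings and variance models, GC and length corrections, a replicate block and leaving out each library.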

Additional observations from a re-analysis of the deposited data

How the results depend on the processing

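Of the 10 members 4 rose and 3 fell in the main fit. The counts were 1 and 6 with TPM, 2 and 7 after quantile normalization, and 3 and 5 with the length correction. They were the same under the other settings, including without each library in turn and with the replicate block. Differences that turned were those of KRT7 with TPM (-0.014) and quantile normalization (-0.22), KRT8 with TPM (-0.35), quantile normalization (-0.50), length correction (-0.12), GC correction (-0.0295) and without siUSP32 library 2 (-0.0300), KRT18 with the first 3 of these (-0.24, -0.45 and -0.16), and LMNA with TPM (-0.079) and quantile normalization (-0.038). With TPM those of WIZ (-0.23), ABHD8 (-0.20), NDOR1 (-0.24), TRIM29 (-0.10), YIF1A (-0.073) and TUBG1 (-0.094) turned too, with the length correction those of YIF1A (-0.15), TUBG1 (-0.0067), ABHD8 (-0.0044) and NDOR1 (-0.12), and with the GC correction, an alternative added after seeing the data, those of WIZ (-0.0077), ABHD8 (-0.0177) and NDOR1 (-0.0094). The cause was not tested. Without each library in turn the difference of KRT8 ran from -0.0300 to 0.0513. Over all genes 4001 rose and 4956 fell, against 1716 and 7453 with TPM and 3068 lower at a minimum FPKM of 5, where fewer genes were tested. With the length correction the log2 differences of the ratios were 0.047 for KRT8 to KRT18, 0.281 for KRT7 to KRT18, -0.606 for KRT19 to KRT18, 0.636 for VIM to keratins and -0.809 for LMNB1 to LMNB2. Deviations of same-numbered libraries correlated at r = -0.0766, 0.0706 and 0.119, and those of the other pairs at -0.158 to 0.1. With 3 libraries per group such values cannot show whether the numbers pair libraries, which the labels do not state. With the replicate block 4016 genes rose and 4979 fell, and siUSP32 library 1 correlated best with siControl library 3. The read depth is unknown, so the precision of low values cannot be given.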

Other observations

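Of 12 listed genes of kinases that phosphorylate filament proteins, 11 passed the filter, with 4 rises, 6 falls and 1 not called, against 33.3% higher and 41.3% lower of all genes tested. Their median log2 difference was -0.22. AURKB, a mitotic kinase that acts on vimentin, rose 2.34-fold, with 125, 143 and 122 FPKM in siUSP32 and 54.4, 53.7 and 58.3 FPKM in siControl (limma adjusted p = 4.36e-07). PLK1, also a mitotic kinase gene, rose 1.30-fold, a call that TPM values ended (log2 difference 0.0047). The kinase genes PKN2 and ROCK2 fell 2.49-fold and 2.01-fold. PRKCA, the gene of protein kinase C alpha, fell 1.57-fold, with a call that ended by quantile normalization (-0.13) and by length-corrected values (-0.0018). With the length correction 3 of the 11 rose and 2 fell, against 35.1% and 35.1% of all genes, and the log2 difference of AURKB was 0.80, of PKN2 -0.80 and of ROCK2 -0.35.

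The genes whose log2 values ran closest to VIM over the 6 libraries, by Euclidean distance after centring, were PSMD7 (distance 0.0237), RPLP0 (0.0322) and CDC123 (0.0377). PSMD7, a proteasome subunit gene, was at 154 ± 4.90 FPKM in siUSP32 and 99.2 ± 1.59 FPKM in siControl (SD, n = 3 each). The closest to KRT18 were WIZ (0.0429), ABHD8 (0.0437) and NDOR1 (0.0540), those to LMNA were TRIM29 (0.0392), YIF1A (0.0410) and TUBG1 (0.0436), and those to PLEC were SLC8B1 (0.0511), HAPLN3 (0.0530) and U2AF2 (0.0636). These distances rest on 6 libraries in 2 groups and describe likeness in these libraries only.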
